A study of Mus musculus with 14 samples.

Results

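The livers of tumor-bearing mice were examined here for 9 genes that mark lymphocytes: Cd3e, Cd3g, Cd4 and Cd8a of T cells, Nkg7 and Gzma of cytotoxic T cells and natural killer (NK) cells, and Ms4a1, Cd79a and Ighm of B cells. They were matched by symbol to the gene names of the liver count table, where they are 9 of 54532 genes, and all 9 were among the 15118 genes with enough reads to be tested. The table was made by bulk RNA-Seq, which reads the RNA of a whole piece of tissue. In such a sample, fewer lymphocytes and less RNA per lymphocyte cannot be told apart.

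There were 8 livers, each counted as 1 sample. All of the mice had received 100000 KPCY cells, a mouse pancreatic cancer line that carries a yellow fluorescent protein, in the tail of the pancreas, and the organs were taken 20 days later. The 2 WT livers served as controls, and per the methods of the study the mice called WT are of a line with a floxed Piezo1 gene. The 3 TRPV4-KO livers came from mice that lack TRPV4, a calcium-permeable channel, in every tissue, while the injected cancer cells keep it. The 3 GSK219 livers came from WT mice given GSK2193874, a TRPV4 blocker, at 10 mg/kg by gavage once a day. Mice of the study were 8 to 12 weeks old and of both sexes, and whether the WT mice received the drug's carrier is not given in the sources used here.

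T cells recognize antigen through a receptor that signals through the CD3 chains, with CD4 or CD8 as coreceptor on helper and killer cells. Killer T cells and NK cells store granzymes and perforin in granules and release them onto their targets. B cells carry membrane IgM and IgD that signal through CD79A and CD79B, and they give rise to plasma cells, which secrete antibody and lose most B cell surface molecules. The liver holds resident NK and T cells along its sinusoids, and few B cells compared with lymph node or spleen.

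Reads assigned to genes ranged from 15567031 to 17395299 per liver. Trpv4 itself had 43 and 53 reads in the WT livers, 15, 5 and 23 in the TRPV4-KO livers, and 20, 30 and 36 in the GSK219 livers. Hepatocyte markers were the most abundant of the marker lists in all 8 livers. Xist, the RNA of the inactive X chromosome, was read in 1 liver of each group (WT 1, TRPV4-KO 3 and GSK219 3), and Y-linked genes in the other 5. The labels give no sex, so values that follow this split are given beside the results.

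Promoters, taken as the 250 bases before and 50 bases after the start of the gene, were found in RefSeq on GRCm38.p6 for 6 of the 9 genes, Cd3e, Cd3g, Cd8a, Nkg7, Gzma and Cd79a. They were searched on both strands for 6 short motifs: CCCNNGGG (early B cell factor), ATGCAAAT (octamer), TGTGGT (Runx), GGAAGT (Ets), TCACACC (T-box) and CAGCTG (E-box). No octamer or early B cell factor motif was found in any of the 6. The promoter of Cd79a, which had the smallest p of the 9 genes between WT and TRPV4-KO livers, and those of Nkg7 and Gzma, the cytotoxic pair, are printed here with motif matches in capitals.
Cd79a, chr7:24897247-24897546, plus strand: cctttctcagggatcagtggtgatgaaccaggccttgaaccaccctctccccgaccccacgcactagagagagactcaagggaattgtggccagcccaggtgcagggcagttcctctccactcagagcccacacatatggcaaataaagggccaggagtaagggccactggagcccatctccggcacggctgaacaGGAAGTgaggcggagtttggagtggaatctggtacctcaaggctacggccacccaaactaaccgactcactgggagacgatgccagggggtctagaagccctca
Nkg7, chr7:43436888-43437187, plus strand: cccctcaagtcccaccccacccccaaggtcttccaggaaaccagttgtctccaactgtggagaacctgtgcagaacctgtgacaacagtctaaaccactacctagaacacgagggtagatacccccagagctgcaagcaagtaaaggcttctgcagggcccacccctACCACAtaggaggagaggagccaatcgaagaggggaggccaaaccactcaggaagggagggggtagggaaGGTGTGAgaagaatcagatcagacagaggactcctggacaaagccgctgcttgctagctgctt
Gzma, chr13:113100932-113101231, minus strand: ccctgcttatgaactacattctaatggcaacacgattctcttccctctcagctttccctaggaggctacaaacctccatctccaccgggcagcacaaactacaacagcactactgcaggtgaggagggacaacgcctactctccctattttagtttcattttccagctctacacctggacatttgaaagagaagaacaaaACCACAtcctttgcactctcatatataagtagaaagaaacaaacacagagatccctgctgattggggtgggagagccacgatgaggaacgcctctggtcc

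In Cd79a the capitals mark an Ets match that begins 54 bases before the start, a motif held by 23.8% of the 32851 promoters in the reference. In Nkg7 they mark a Runx match on the opposite strand, beginning 83 bases before the start, and a T-box match on the opposite strand, beginning 13 bases before it. In Gzma a Runx match on the opposite strand begins 50 bases before the start. Of all promoters, 16.8% hold the Runx motif and 3.98% the T-box motif. Cd3e held an Ets match and Cd3g and Cd8a an E-box match each, motifs found in 23.8% and 16.3% of promoters.

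The T cell genes had from 1 to 31 counts in each liver, and their levels in the 3 groups overlapped. Cd3e, on GRCm38 at chr9:44998740-45009627, encodes the epsilon chain of CD3. It had 14 and 8 counts in the WT livers, 5, 9 and 19 in the TRPV4-KO livers, and 8, 7 and 7 in the GSK219 livers. The lowest and the highest liver were both TRPV4-KO. In CPM (counts scaled to the size of each library, with TMM factors), Cd3e averaged 0.666 ± 0.283 in WT (SD, n = 2), 0.666 ± 0.399 in TRPV4-KO (SD, n = 3) and 0.448 ± 0.0478 in GSK219 livers (SD, n = 3). The annotated gene overlaps Gm48719 and Gm48720, and whether reads were counted by strand is not given, so some of its counts could belong to those genes.

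Cd3g (chr9:44969572-44980431), the gamma chain of CD3 in the same gene cluster, had 16 and 6 counts in WT, 3, 1 and 13 in TRPV4-KO, and 5, 5 and 13 in GSK219 livers. The highest value of each group belonged to the liver with Xist reads. Its level was 0.67 ± 0.453 CPM in WT (SD, n = 2), 0.336 ± 0.366 in TRPV4-KO and 0.465 ± 0.271 in GSK219 livers (SD, n = 3 each), so the spread was large beside the mean in every group.

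Cd4 (chr6:124864692-124888221), the coreceptor of helper T cells that macrophages and dendritic cells can also carry, was the steadiest of the 9 genes. It had 24 and 31 counts in WT, 25, 17 and 22 in TRPV4-KO, and 27, 11 and 19 in GSK219 livers. All 3 groups overlapped, at 1.65 ± 0.228 CPM in WT (SD, n = 2), 1.32 ± 0.243 in TRPV4-KO and 1.17 ± 0.518 in GSK219 livers (SD, n = 3 each). It was also the only one of the 9 genes that was not highest in the liver with Xist reads in any group.

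Cd8a (chr6:71373427-71379173), the coreceptor of killer T cells, had 27 and 8 counts in WT, 14, 5 and 11 in TRPV4-KO, and 2, 8 and 17 in GSK219 livers. The highest liver was WT 1 and the lowest GSK219 1, with the other livers spread between them. Counts of Cd4 per count of Cd8a were accordingly uneven: 0.889 and 3.88 in WT, 1.79, 3.4 and 2 in TRPV4-KO, and 13.5, 1.38 and 1.12 in GSK219 livers. With 2 counts of Cd8a in GSK219 1, for which the exact 95% Poisson interval runs from 0.242 to 7.22 counts, the highest of these ratios is poorly determined.

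Nkg7 and Gzma, both of the cytotoxic granule, varied from liver to liver within each group, and the groups overlapped for both. Nkg7 (chr7:43437073-43438249), a granule membrane protein, had 14 and 13 counts in WT, 11, 8 and 25 in TRPV4-KO, and 3, 14 and 23 in GSK219 livers. Both WT livers lay within the range of each other group. Its level was 0.812 ± 0.0766 CPM in WT (SD, n = 2), 0.887 ± 0.493 in TRPV4-KO and 0.803 ± 0.594 in GSK219 livers (SD, n = 3 each).

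Gzma (chr13:113093825-113100981), granzyme A, had 16 and 6 counts in WT, 11, 1 and 17 in TRPV4-KO, and 1, 6 and 7 in GSK219 livers. TRPV4-KO livers thus held both the highest count and, tied with GSK219 1, the lowest. A count of 1 has an exact 95% Poisson interval of 0.0253 to 5.57 counts and a count of 17 has 9.9 to 27.2, which cover counting error only. The level was 0.67 ± 0.453 CPM in WT (SD, n = 2), 0.582 ± 0.47 in TRPV4-KO and 0.281 ± 0.191 in GSK219 livers (SD, n = 3 each).

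**Figure D1:**
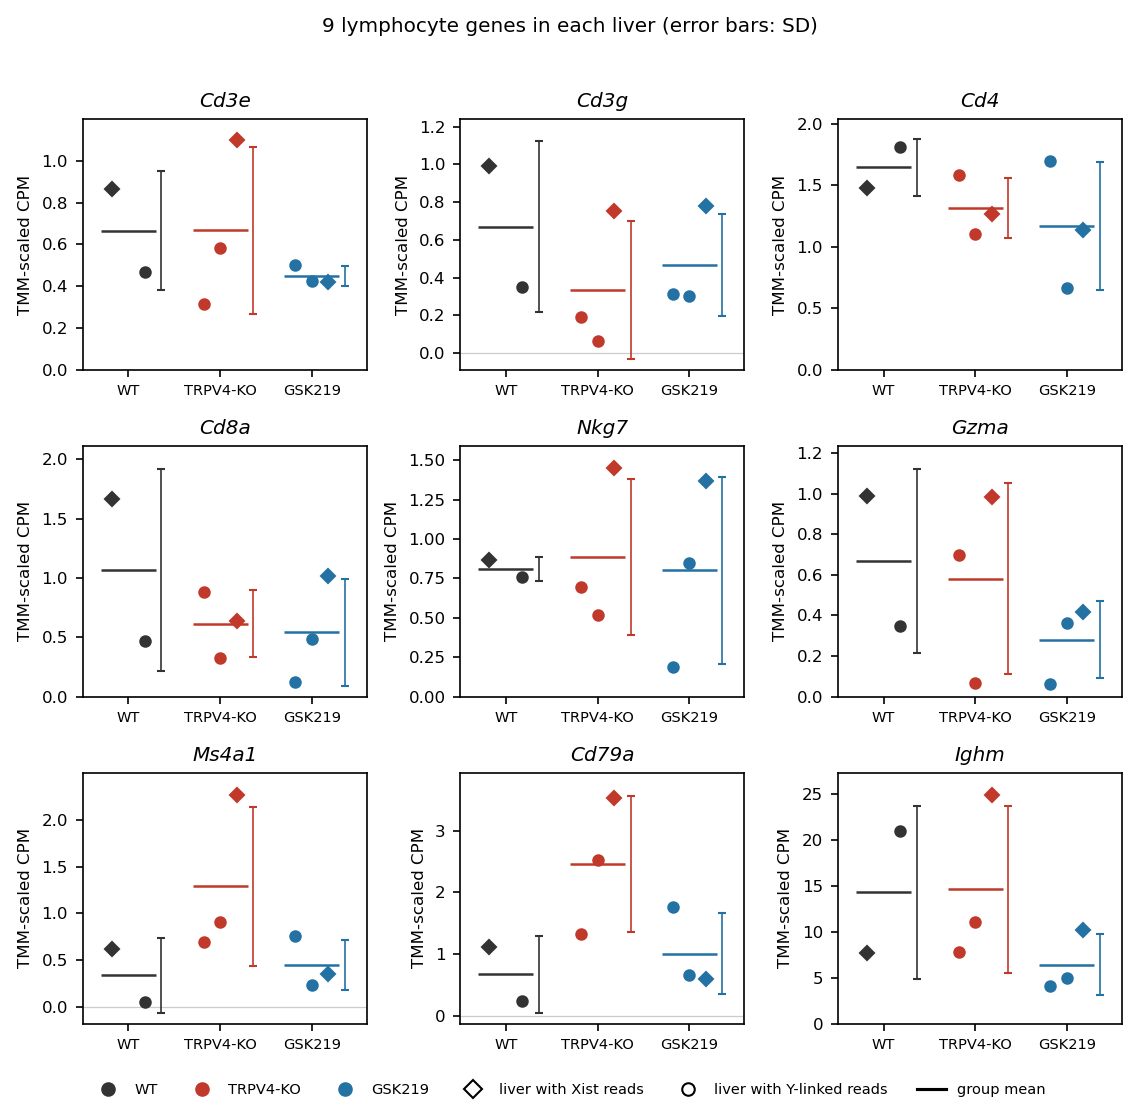
TMM-scaled CPM (vertical axis) of the 9 lymphocyte genes in each liver, by group, with the group mean as a line and its SD as the bar to the right (n = 2 WT, 3 TRPV4-KO and 3 GSK219). Diamonds are the 3 livers with Xist reads and circles the 5 with Y-linked reads; the 3 TRPV4-KO livers lie above both WT livers for Ms4a1 and Cd79a, and the groups overlap for the other genes in that pair of groups.

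The B cell surface genes Ms4a1 and Cd79a had the largest fitted differences of the 9 genes between WT and TRPV4-KO livers, toward higher levels in TRPV4-KO. Cd79a (chr7:24897381-24902197), a signaling chain of the B cell receptor, had 18 and 4 counts in WT, 21, 39 and 61 in TRPV4-KO, and 28, 11 and 10 in GSK219 livers. Every TRPV4-KO liver was above both WT livers, and the GSK219 livers overlapped both other groups. The means were 0.673 ± 0.622 CPM in WT (SD, n = 2), 2.46 ± 1.1 in TRPV4-KO and 1.01 ± 0.654 in GSK219 livers (SD, n = 3 each).

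Ms4a1 (chr19:11249675-11266241), which encodes the B cell surface protein CD20, had 10 and 1 counts in WT, 11, 14 and 39 in TRPV4-KO, and 12, 4 and 6 in GSK219 livers. The nearest TRPV4-KO and WT livers were 0.696 and 0.619 CPM, so the gap between these groups was narrow, and 1 liver, TRPV4-KO 3, was far above the rest at 2.26 CPM. Group means were 0.338 ± 0.396 CPM in WT (SD, n = 2), 1.29 ± 0.848 in TRPV4-KO and 0.452 ± 0.269 in GSK219 livers (SD, n = 3 each). Ms4a1 overlaps the annotated gene 4930526L06Rik, with the same limit on strand. Of all genes tested, 15.5% had every TRPV4-KO liver above every WT liver, beside 2 of these 9.

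Ighm (chr12:113418558-113422730), the constant region of the IgM heavy chain, was by far the most read of the 9 genes and did not follow Cd79a and Ms4a1. It had 124 and 361 counts in WT, 124, 172 and 430 in TRPV4-KO, and 65, 82 and 171 in GSK219 livers. WT 2, the liver with the fewest Cd79a and Ms4a1 counts of all 8, had the second most Ighm counts. Ighm averaged 14.4 ± 9.45 CPM in WT (SD, n = 2), 14.6 ± 9.05 in TRPV4-KO and 6.42 ± 3.32 in GSK219 livers (SD, n = 3 each), and the groups overlapped.

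The design asks whether loss of TRPV4, or its blockade by GSK219, changed these genes in the liver relative to WT. Per the methods of the study, TRPV4-KO mice were of another line than WT mice. Line and loss of TRPV4 therefore cannot be told apart where TRPV4-KO livers are compared with WT or GSK219 livers. By edgeR's quasi-likelihood test of all 15118 genes, none of the 9 passed an adjusted p under 0.05 with a log2 fold change over 1 between WT and TRPV4-KO livers, where 0.265% of all genes tested passed. At an unadjusted p under 0.05 there was 1 of the 9, Cd79a, beside 17.1% of all genes tested, and DESeq2 called none. DESeq2 gave Cd3g and Gzma no adjusted p in this comparison, so it could not call them. Between WT and GSK219 livers, 0 of the 9 passed, with 0% of all genes, 0 of the 9 at an unadjusted p under 0.05 (8.22% of all genes) and 0 by DESeq2. Between TRPV4-KO and GSK219 livers it was again 0 of 9, against 0.0992% of all genes, with 0 at an unadjusted p under 0.05 (6.12% of all genes) and 0 by DESeq2. WT livers enter both of the first comparisons, which are therefore not independent.

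Between WT and TRPV4-KO livers, the log2 fold change (above 0 where WT was higher) of Cd79a was −1.87 (SE 0.76, 95% confidence interval −3.60 to −0.14), which is 3.66-fold higher in TRPV4-KO, with an unadjusted p of 0.037 and an edgeR adjusted p of 0.26. For Ms4a1 it was −1.93 (SE 0.90, interval −4.00 to 0.14), or 3.81-fold higher in TRPV4-KO, with an edgeR adjusted p of 0.32. Both values depended on single livers. They were −1.14 for Cd79a and −1.06 for Ms4a1 without WT 2, −3.35 and −4.29 without WT 1, and −1.52 and −1.24 without TRPV4-KO 3. Cd79a did not reach an adjusted p of 0.05 in any alternative, with adjusted p from 0.14 to 0.56.

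The other 7 genes were nearer to no difference between WT and TRPV4-KO, with wide intervals. Cd3g was at 0.94 (interval −1.11 to 3.00), Cd8a at 0.78 (−1.06 to 2.62) and Cd4 at 0.32 (−0.65 to 1.29) on the log2 scale. Gzma was at 0.18 (−1.94 to 2.30), Nkg7 at −0.14 (−1.81 to 1.53), Ighm at −0.03 (−1.48 to 1.43) and Cd3e at −0.01 (−1.34 to 1.31). Cd3g was at 0.05 without WT 1 and at 2.31 without TRPV4-KO 3. The edgeR adjusted p of the 7 genes ran from 0.64 for Cd3g to 0.99 for Cd3e and Ighm. Cd4, with the narrowest interval, still spans a WT level from 0.65 lower to 1.29 higher in log2, and each of the 9 intervals reached past a 2-fold difference in at least 1 direction.

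Against GSK219 livers, 7 of the 9 genes had a fitted level higher in WT and 2, Cd79a at −0.58 and Ms4a1 at −0.42, a lower one. Of all 15118 genes tested, 7514 were fitted higher in WT there. Gzma had the largest value, 1.21 in log2 (SE 0.98, interval −1.03 to 3.46, edgeR adjusted p = 0.83), and 0.29 without WT 1 or 1.78 without WT 2. Ighm followed at 1.16 (SE 0.63, interval −0.30 to 2.62, edgeR adjusted p = 0.70), with WT livers at 7.67 and 21 CPM and GSK219 livers at 4.09, 4.95 and 10.2 CPM, which overlap. Its value was 0.25 without WT 2 and 1.71 without WT 1. Cd8a was at 0.96, Cd3e at 0.56, Cd3g at 0.51, Cd4 at 0.50 and Nkg7 at 0.01.

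TRPV4-KO livers had the higher fitted level of all 3 B cell genes relative to GSK219 livers, none past the test. The log2 fold changes were 1.51 for Ms4a1 (interval −0.22 to 3.24, edgeR adjusted p = 0.88), 1.29 for Cd79a (−0.15 to 2.73, edgeR adjusted p = 0.87) and 1.19 for Ighm (−0.15 to 2.53, edgeR adjusted p = 0.87). Without TRPV4-KO 3 they were 0.82, 0.93 and 0.56. The highest values with 1 liver left out were 2.08 for Ms4a1 and 1.95 for Cd79a, both without GSK219 1, and 1.69 for Ighm without GSK219 3. For the T and cytotoxic genes the values were 1.03 for Gzma (0.42 without TRPV4-KO 3), 0.58 for Cd3e, 0.18 for Cd4 and Cd8a, 0.15 for Nkg7 and −0.43 for Cd3g.

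**Figure D2:**
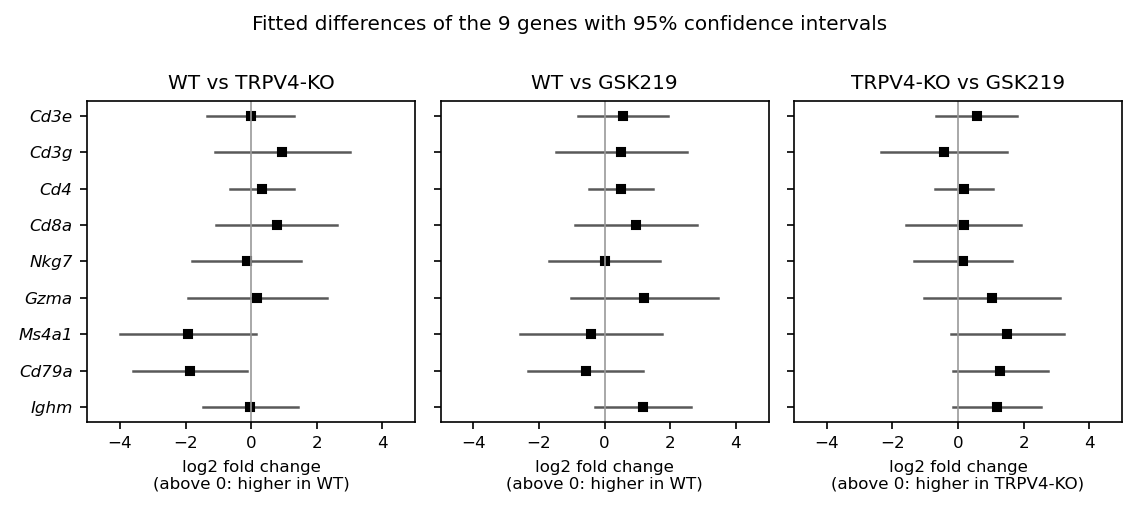
Fitted log2 fold changes (horizontal axis, squares) of the 9 genes with 95% confidence intervals (lines) in the 3 comparisons, from the fit of 8 livers. Only the interval of Cd79a between WT and TRPV4-KO livers, −3.60 to −0.14, leaves out 0, before any adjustment for the number of genes tested.

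Levels can be compared between genes only per length. As CPM per kilobase of gene model, averaged over the 8 livers, Ighm was highest at 6.09 ± 4.0 (SD, n = 8), followed by Cd79a at 1.01 ± 0.758 and Nkg7 at 0.916 ± 0.455. Gzma was at 0.488, Cd4 at 0.333, Cd8a at 0.193, Cd3e and Cd3g at 0.143 each and Ms4a1 at 0.119. Ighm was above Cd79a in 8 of 8 livers, and Nkg7 was above Gzma, and Cd4 above Cd8a, in 7 of 8 each. Neighbours such as Cd79a and Nkg7, in order in 4 of 8 livers, or Cd3e and Cd3g, at the same mean, could not be ranked within their spread. Across the 8 livers the coefficient of variation of the CPM ran from 27.9% for Cd4 to 91.9% for Ms4a1. Counting alone would give 21.3% for Cd4 and 28.7% for Ms4a1 at their mean counts. Ighm was at 65.7% against 7.23% from counting, and Cd79a at 75.2% against 20.4%. The rest of this spread includes differences between animals and groups.

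The liver with Xist reads had the highest level in all 3 groups for Cd3g, Nkg7 and Gzma, 3 of the 9 genes, where 16.2% of all genes tested did so. Nkg7 was at 0.866, 1.45 and 1.37 CPM in those 3 livers and from 0.189 to 0.846 CPM in the other 5. Cd3e, Cd8a, Ms4a1, Cd79a and Ighm were highest in that liver in 2 of the 3 groups. Among the wider lists, the pattern held for 9 of 12 NK and cytotoxic genes tested, 8 of 16 T cell genes, 4 of 19 B cell genes and 0 of 8 plasma cell genes. It also held for 10 of 11 Kupffer cell and macrophage genes, 7 of 9 dendritic cell genes and 12 of 18 genes of antigen receptor signaling. It held for 3 of 6 liver endothelial, 2 of 11 neutrophil, 2 of 7 hepatocyte and 1 of 5 cholangiocyte and tumor epithelial genes. None of 5 erythroid, 2 acinar and 2 lymph node stroma genes showed it. With a term for this split in the fit, still none of the 9 genes passed the test between groups. There was 1 such liver in each group, and the part of sex in these values was not tested.

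A wider list of 20 B cell genes, 19 of them tested, held 6 genes with a fitted level higher in WT and 13 higher in TRPV4-KO, with none past the test by edgeR (DESeq2 passed Igkc, at an adjusted p of 0.047) and a median log2 fold change of −0.53 against −0.01 over all genes tested. Igkc was the only one of them with an unadjusted p under 0.05 toward WT, and Cd79a the only one toward TRPV4-KO. Fcer2a, the low-affinity IgE receptor of mature B cells, had 7 and 1 counts in WT and 5, 12 and 34 in TRPV4-KO livers, with a log2 fold change of −2.05 (SE 0.92, edgeR adjusted p = 0.31), and −3.96 without WT 1, −1.23 without WT 2 and −1.15 without TRPV4-KO 3. Bank1, a B cell scaffold protein, went the other way, with 150 and 128 counts in WT, 79, 53 and 116 in TRPV4-KO, and 47, 77 and 90 in GSK219 livers (0.73 in log2 between WT and TRPV4-KO, edgeR adjusted p = 0.32). The list's median was −0.34 for WT against GSK219 and 1.08 for TRPV4-KO against GSK219, where 16 of 19 genes had the higher fitted level in TRPV4-KO, beside 7955 of 15118 genes tested. The only 2 with an unadjusted p under 0.05 there, the light chain genes Igkc (−1.28, edgeR adjusted p = 0.75) and Iglc1 (−1.66, edgeR adjusted p = 0.62), were higher in GSK219.

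Ighd, the heavy chain of IgD on naive B cells, is named here because its levels were most like those of Cd79a (Pearson's r = 0.97 of log2 CPM over the 8 livers, a description from low counts). It had 26 and 4 counts in WT, 25, 38 and 108 in TRPV4-KO, and 31, 17 and 12 in GSK219 livers, with the lowest and highest livers the same as for Cd79a, as its choice by likeness implies. Genes most like Ms4a1 were Fcmr, the Fc receptor for IgM (r = 0.99), Ighd (0.98), Srpk3, Cd79a and Acad12, and those most like Cd79a included Ms4a1 and Pax5, the transcription factor that maintains B cell identity (0.95). Fcmr had 9 and 0 counts in WT, 6, 9 and 41 in TRPV4-KO, and 11, 2 and 4 in GSK219 livers. By contrast, Ighm and Cd79a had an r of 0.01.

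Ighm counts per Ighd count were between 3.98 and 4.96 in WT 1 and all 3 TRPV4-KO livers, 90.2 in WT 2, and 2.1, 4.82 and 14.2 in GSK219 livers. Ighm counts per Cd79a count showed the same single liver, with 6.89 in WT 1 and 90.2 in WT 2, 5.9, 4.41 and 7.05 in TRPV4-KO, and 2.32, 7.45 and 17.1 in GSK219 livers. Cd79a and Ighd each had 4 counts in WT 2, an exact 95% Poisson interval of 1.09 to 10.2 counts, so the ratio there is known only to within that range.

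The gene of secreted IgA followed another order. Igha, the heavy chain of IgA, had 1513 and 640 counts in WT, 185, 87 and 110 in TRPV4-KO, and 885, 778 and 1882 in GSK219 livers. No TRPV4-KO liver reached the level of any other liver. Between WT and TRPV4-KO the log2 fold change was 3.05 (SE 0.55, interval 1.77 to 4.33), or 8.28-fold higher in WT, with an unadjusted p of 0.00073 and an edgeR adjusted p of 0.09, and DESeq2 gave an adjusted p of 1.9e-07. With 1 liver left out the value ran from 2.25 (without WT 1) to 3.57 (without WT 2). Over all alternatives the adjusted p ran from 1.9e-07 to 0.43, the latter without WT 1. Between TRPV4-KO and GSK219 livers it was −3.18 (SE 0.52, edgeR adjusted p = 0.15, DESeq2 adjusted p = 4.7e-10), and between WT and GSK219 −0.13 (interval −1.38 to 1.11, edgeR adjusted p = 0.98). Every GSK219 liver was above every TRPV4-KO liver for 4.35% of all genes tested.

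Jchain, which joins IgA and IgM into polymers, had 278 and 113 counts in WT, 107, 26 and 52 in TRPV4-KO, and 138, 136 and 276 in GSK219 livers (1.64 in log2 between WT and TRPV4-KO, edgeR adjusted p = 0.24, and 0.80 without WT 1 or 2.33 without TRPV4-KO 1). Igkc, the kappa light chain shared by all antibody classes, had 693 and 364 counts in WT, 252, 95 and 218 in TRPV4-KO, and 334, 307 and 745 in GSK219 livers (1.47, edgeR adjusted p = 0.23). The TRPV4-KO livers were the lowest 3 of 8 for Igkc as for Igha. Ighg1, the IgG1 heavy chain, had 39 and 28 counts in WT, 12, 5 and 3 in TRPV4-KO, and 6, 15 and 11 in GSK219 livers (2.26, edgeR adjusted p = 0.14, and from 1.88 without TRPV4-KO 3 to 3.00 without TRPV4-KO 1). Prdm1, the transcription factor that drives plasma cell formation and is also expressed by myeloid and T cells, had 56 and 49 counts in WT, 19, 9 and 15 in TRPV4-KO, and 8, 23 and 27 in GSK219 livers (1.83, edgeR adjusted p = 0.15). For both of these genes the 2 WT livers were above all other livers. Every WT liver was above every TRPV4-KO liver for 17.7% of all genes tested, and the share above all other livers was not computed. Of the other IgG heavy chain genes, Ighg2b had 66 and 162 counts in WT, 92, 38 and 20 in TRPV4-KO, and 30, 55 and 42 in GSK219 livers (1.11, edgeR adjusted p = 0.4). Ighg2c had 66 and 73 counts in WT, 111, 30 and 26 in TRPV4-KO, and 38, 42 and 40 in GSK219 livers (0.26, edgeR adjusted p = 0.87), and Ighg3, too low to be tested, had 31 counts in TRPV4-KO 1 and at most 5 in the others.

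Of the 10 plasma cell genes listed, 8 were tested, and all 8 were fitted higher in WT relative to TRPV4-KO, beside 7377 of 15118 genes tested. Their median was 1.56. By edgeR, 4 had an unadjusted p under 0.05 (9.5% of all genes tested had one with WT higher) and none passed the adjusted test. DESeq2 passed Igha, Ighg1 and Prdm1 among those named here. Without Igha, the sums of the list overlapped between TRPV4-KO livers (10.1 to 25.7 CPM) and GSK219 livers (21.9 to 29.3 CPM). Derl3, a protein of the endoplasmic reticulum of secretory cells, had 150 and 52 counts in WT, 23, 37 and 47 in TRPV4-KO, and 233, 68 and 26 in GSK219 livers (1.48, edgeR adjusted p = 0.43, and 0.48 without WT 1 or 2.08 without WT 2). Pancreatic acinar cells express Derl3 too, and the summed level of 8 acinar markers was 7.86 and 17.3 CPM in WT, 13.2, 19.9 and 9.84 in TRPV4-KO, and 16.5 to 25.3 CPM in GSK219 livers. Most of that sum was Cela1, and the other 7 markers added up to between 0.696 and 1.91 CPM, the highest in GSK219 3. Cela2a had 11 to 29 counts in each liver, and Ctrb1 had 10 in GSK219 3 and 0 to 2 in the others. Cpa1, Cpb1, Prss2 and Pnlip had 1, 4, 1 and 3 counts in GSK219 3 and 0 in the others apart from 1 count of Cpb1 in TRPV4-KO 3, and Amy2a2 had 0 in every liver. GSK219 3 also had the highest Igha and Igkc and the lowest Derl3 of the GSK219 livers. The part of acinar RNA in these values was not tested. Igha counts per Ighm count were 12.2 and 1.77 in WT, 1.49, 0.506 and 0.256 in TRPV4-KO, and 13.6, 9.49 and 11 in GSK219 livers, so the same livers that had similar Ighm held different Igha.

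**Figure D3:**
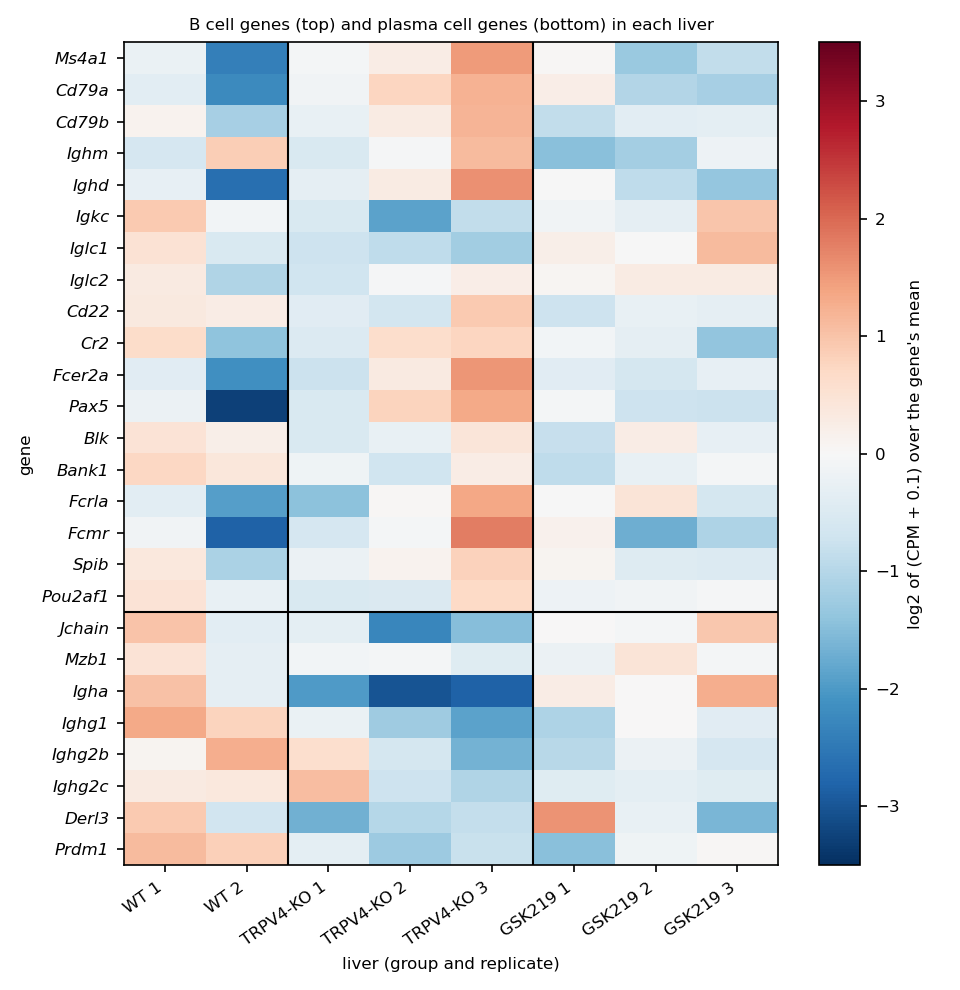
Level of 18 B cell genes (top) and the 8 tested plasma cell genes (bottom) as rows, in each of the 8 livers (columns), given as log2 of CPM plus 0.1 over the gene's mean across livers, red above and blue below the mean. Of the 18 B cell genes, 11 were lowest in WT 2 and 13 highest in TRPV4-KO 3, while Ighm, Cd22, Blk and Bank1 were lowest in GSK219 1 and Igkc, Iglc1 and Pou2af1 in a TRPV4-KO liver.

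Among 24 T cell genes, 16 were tested, and by edgeR none passed the test or an unadjusted p under 0.05 in any comparison. Between WT and TRPV4-KO livers, 14 had a fitted level higher in WT and 2, Cd3e and Il7r, a lower one, with a median of 0.39. Of all 15118 genes tested, 7377 were fitted higher in WT. Tcf7, a transcription factor of naive and memory T cells, was the most read, with 173 and 88 counts in WT, 86, 78 and 77 in TRPV4-KO, and 104, 82 and 123 in GSK219 livers (0.67 in log2, edgeR adjusted p = 0.34). Without WT 1 its value was 0.05. Themis, needed for T cell development in the thymus, had 59 and 16 counts in WT, 25, 10 and 4 in TRPV4-KO, and 7, 29 and 4 in GSK219 livers, and the groups overlapped (1.48, edgeR adjusted p = 0.47, and from 0.20 without WT 1 to 2.38 without TRPV4-KO 1). Icos, a costimulatory receptor, was at 0.47 and Bcl11b, a transcription factor of T cell identity, at 0.95, with edgeR adjusted p of 0.71 and 0.57. All 16 were fitted higher in WT than in GSK219 livers, beside 7514 of 15118 genes tested. The median was 0.49 and the smallest edgeR adjusted p was 0.76. The 16 were read in the same livers, so their signs are not independent.

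Of 22 NK and cytotoxic genes, 12 were tested and by edgeR none passed the test or an unadjusted p under 0.05 in any comparison. Between WT and TRPV4-KO, 9 were fitted higher in WT and 3 higher in TRPV4-KO (median 0.45), beside 7377 of 15118 genes higher in WT. Il2rb, a receptor chain for interleukins that sustain NK cells, had 102 and 47 counts in WT, 35, 39 and 99 in TRPV4-KO, and 35, 60 and 123 in GSK219 livers (0.37, edgeR adjusted p = 0.81). Its 3 high values were the 3 livers with Xist reads. Klrk1, the activating receptor NKG2D, had 56 and 51 counts in WT, 19, 11 and 56 in TRPV4-KO, and 17, 32 and 37 in GSK219 livers (0.89, edgeR adjusted p = 0.48, and from 0.53 without TRPV4-KO 2 to 1.74 without TRPV4-KO 3). Prf1, the pore-forming perforin, had 13 and 2 counts in WT, 1, 3 and 3 in TRPV4-KO, and 4, 10 and 14 in GSK219 livers (1.61, edgeR adjusted p = 0.42). Without WT 1 the value for Prf1 turned to −0.28. Between TRPV4-KO and GSK219 livers Prf1 was at −1.92 (interval −3.84 to 0.00, edgeR adjusted p = 0.82), and every GSK219 liver was above every TRPV4-KO liver. Klrd1, the CD94 chain of NK receptors, was at 0.91 (0.16 without WT 1 and 1.42 without TRPV4-KO 3) and Ccl5, a chemokine of cytotoxic cells, at −0.15.

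Of 21 genes of antigen receptor signaling, 18 were tested and none passed the test by edgeR, while 9 had an unadjusted p under 0.05, all 9 with WT higher than TRPV4-KO, beside 9.5% of all genes tested. Several of these are not particular to lymphocytes. Btk, a kinase of B cells and myeloid cells, had 106 and 76 counts in WT, 32, 22 and 57 in TRPV4-KO, and 31, 58 and 60 in GSK219 livers (1.28, edgeR adjusted p = 0.19). Vav1, an exchange factor of all blood cells, had 275 and 257 counts in WT, 112, 67 and 190 in TRPV4-KO, and 81, 136 and 148 in GSK219 livers (1.09, edgeR adjusted p = 0.20). Lyn, a kinase of B and myeloid cells, was at 0.42 (edgeR adjusted p = 0.21), Plcg1, a phospholipase of T cells and many tissues, at −0.26 (0.60) and Csk, a kinase of nearly all cells, at −0.00 (0.99). The 2 WT livers were above all 3 TRPV4-KO livers for 10 of the 18, where 17.7% of all genes tested were.

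Markers of myeloid cells were read in the same livers. The summed level of 12 neutrophil markers was 83.6 and 98.0 CPM in WT, from 6.8 to 17.9 in TRPV4-KO and from 6.23 to 16.5 in GSK219 livers. By edgeR, 3 of 11 tested genes passed between WT and TRPV4-KO, beside 0.265% of all genes tested, with a median log2 fold change of 3.84. Between WT and GSK219, 0 of these 11 passed, 11 had an unadjusted p under 0.05 (8.22% of all genes tested) and the median was 3.62. Between TRPV4-KO and GSK219, 0 passed and 0 had an unadjusted p under 0.05 (6.12% of all genes tested). For 11 Kupffer cell and macrophage markers the sums were 1930 to 2190, 530 to 1160 and 558 to 1320 CPM, with a median of 1.36 between WT and TRPV4-KO and 1.09 between WT and GSK219. By edgeR none of the 11 passed the test, while 10 and 9 of them had an unadjusted p under 0.05 in these comparisons, all with WT higher. Of all genes tested, 17.1% and 8.22% had one in either direction. Their part in the values of Cd4, Prdm1, Btk, Vav1 and Lyn was not tested. The T cell list, by the same sum, lay between 18.5 and 34.2 CPM in WT, 14.1 and 19.9 in TRPV4-KO and 13.7 and 24.0 in GSK219 livers, so its groups overlapped. Of the lymph node stroma markers, Ccl19 and Madcam1 had 0 counts in every liver, and Ccl21a had 10 counts in TRPV4-KO 3, the liver with the most Cd79a and Ms4a1, and at most 2 in the others. Cxcl13 had 150 and 87 counts in WT, 98, 32 and 77 in TRPV4-KO, and 41, 81 and 82 in GSK219 livers, and Cr2 had 13 and 2, 5, 12 and 15, and 7, 6 and 2.

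**Figure D4:**
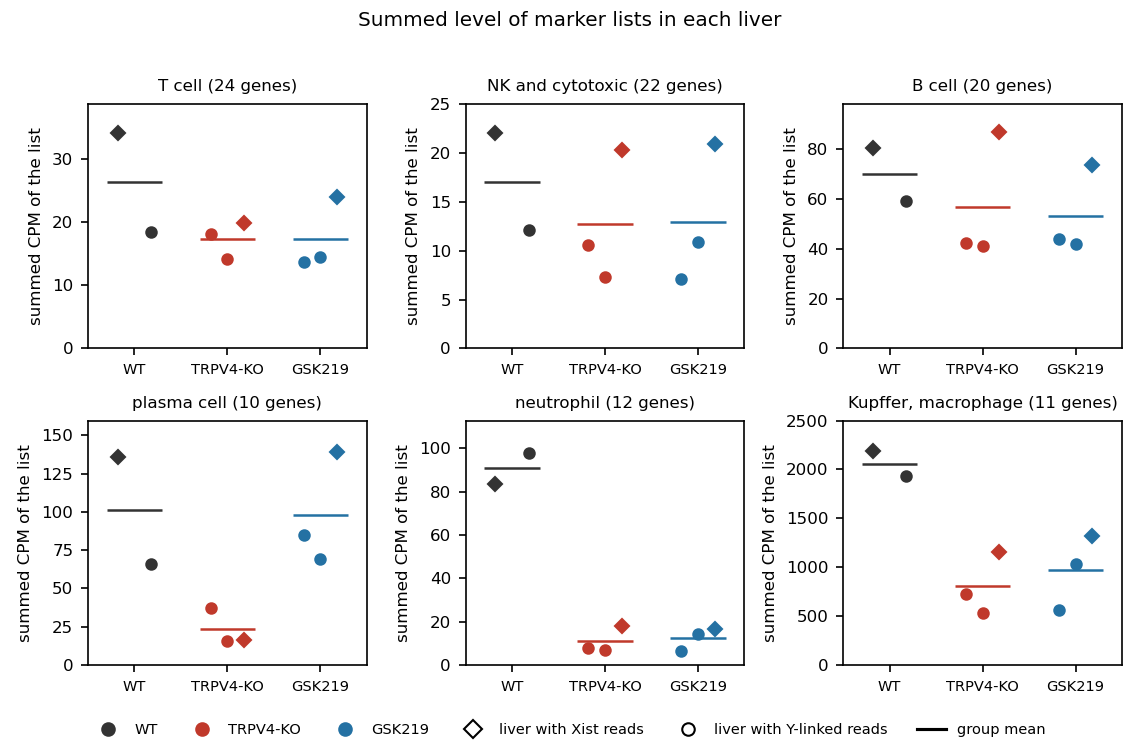
Summed CPM (vertical axis) of 6 marker lists in each liver by group, with the mean as a line; diamonds are the livers with Xist reads. Neutrophil sums of both WT livers, 83.6 and 98.0 CPM, were above all others. Plasma cell sums of the 3 TRPV4-KO livers, 15.8 to 37.4 CPM, were below all others (not so without Igha). T, NK and B cell sums overlapped between groups. Without the antibody genes Ighm, Igkc, Iglc1 and Iglc2, the lowest TRPV4-KO B cell sum, 17.7 CPM, was just above every GSK219 sum. The WT sums without these genes, 28.1 and 16.3 CPM, overlapped both other groups.

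Among the 9 genes themselves, pairs of one cell type did not always go together across the 8 livers. On the log2 CPM scale, Pearson's r was 0.97 for Ms4a1 and Cd79a, 0.84 for Cd8a and Gzma, 0.75 for Nkg7 and Gzma and 0.73 for Cd8a and Nkg7. For Cd3e and Cd3g it was 0.51, and for Cd4 with each of the other 8 genes it lay between −0.33 and 0.24. These are descriptions over 8 livers that share group and sex, at counts often under 20. The genes most like Cd3e, Cd3g, Cd4, Cd8a, Nkg7, Gzma and Ighm over the 8 livers, 5 for each, held no gene of the lymphocyte lists.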

How the data were processed

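RNA from 8 mouse livers was sequenced, and the authors deposited raw counts of reads per gene, with no normalization, for 54532 genes at GRCm38 coordinates. The submitters' processing notes name HISAT2 2.0.5 and Trim Galore, and the counting tool and its strand setting are not given in the sources used here. Another 7 columns, which fit none of the labels, were left out. Samples were grouped by their labels. The test was edgeR 4.0.16 (R 4.3.3): TMM scaling, its filter on low counts (minimum count 10), and a single quasi-likelihood model over the 8 livers with robust dispersions, with Benjamini-Hochberg adjustment over the 15118 genes tested. A gene was called where its adjusted p was below 0.05 and its log2 fold change above 1 in size. DESeq2 1.42.0, other scaling, no filter and leaving out each liver were alternatives, and the fits were tested on simulated data. Genes other than the 9 were named by a rule: in each list the 3 with the highest mean CPM and the 3 with the smallest p between WT and TRPV4-KO livers, and for Cd3e, Nkg7 and Cd79a the most similar genes over the livers, by Pearson correlation of log2 CPM with a prior count of 2. Likeness to the other members was listed outside this rule. Ighd and Pax5 came from the likeness to Cd79a, and Fcmr from the likeness to Ms4a1, outside the rule. Il7r, Iglc1, Ighg2b, Ighg2c, Ighg3, Cd22, Blk, Pou2af1 and the stroma and acinar markers were named after their values were seen. Same-numbered TRPV4-KO and GSK219 livers deviated together (correlations 0.152 to 0.58), as did differently numbered livers with the same sex reads (0.307 and 0.475), and WT 1 did not do so with its number in either group. The sign of every such correlation followed the Xist or Y-linked split, so a pairing by number could not be decided. The 9 genes and the lists were chosen with earlier results of these data known. The labels call the livers biological replicates, and the study counts 2 WT and 3 TRPV4-KO animals. The p-values measure the spread between these samples.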

Additional observations from a re-analysis of the deposited data

How the results depend on the processing

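None of the 9 lymphocyte genes passed the test in any comparison under any alternative run: DESeq2, other size factors, library totals alone, no filter on low counts, the replicate block, a fit of only the 2 groups compared, a term for Xist or Y-linked reads, no fold threshold, and each liver left out. With DESeq2, Cd3g and Gzma had no adjusted p between WT and TRPV4-KO livers, so that run says nothing about them there. The number of genes called over the whole table did depend on the settings. Between WT and TRPV4-KO livers it was 40, and became 489 with DESeq2 (370 higher in WT and 119 higher in TRPV4-KO), 140 with no filter, 20 with only the 2 groups, and 325 with the term for Xist or Y-linked reads, and it ran from 2 (without WT 2) to 718 (without TRPV4-KO 3) when 1 liver was left out. Between WT and GSK219 livers it was 0, and became 74 with DESeq2, 8 with no filter, 2 with only the 2 groups and 4 with the term for Xist or Y-linked reads, and ran from 0 to 2 when 1 liver was left out. Between TRPV4-KO and GSK219 livers it was 15, and became 93 with DESeq2, 38 with no filter and 34 with the term for Xist or Y-linked reads, and ran from 8 (without TRPV4-KO 1) to 87 (without TRPV4-KO 3). The cause was not tested.

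Whether replicate numbers pair the WT livers with the others could not be decided. Deviations of same-numbered livers correlated at −0.432 for WT 1 with TRPV4-KO 1 and −0.484 for WT 1 with GSK219 1, against 0.545 and 0.304 for WT 2, and WT has no replicate 3. With 2 WT livers, the deviations of WT 1 and WT 2 from their mean are mirror images. Between groups, every pair with the same sex reads correlated above 0 and every other pair below 0. The 3 pairs of TRPV4-KO and GSK219 livers correlated at 0.286, 0.152 and 0.58, but differently numbered livers with the same sex reads did so at 0.307 and 0.475, and the replicate block there called 19 genes and changed no call of the 9 genes or of Igha. A replicate block called 429 genes between WT and TRPV4-KO and 9 between WT and GSK219. In that fit, log2 fold changes between WT and TRPV4-KO turned to 0.26 for Cd3e, 0.45 for Nkg7 and 0.45 for Ighm, and Igha (3.12, edgeR adjusted p = 0.034) and Igkc (1.72, edgeR adjusted p = 0.044) passed the test.

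Other values changed sign. Between WT and TRPV4-KO, library totals alone gave 0.06 for Cd3e, 0.04 for Ighm and 0.09 for Csk, and the term for Xist or Y-linked reads gave −0.03 for Gzma, 0.12 for Ighm and 0.03 for Csk. Nkg7 between WT and GSK219 was −0.02 with no filter and −0.04 with that term. Leaving out 1 liver at a time, the values between WT and TRPV4-KO ran from −0.50 to 0.56 for Cd3e, −0.38 to 1.43 for Cd8a, −0.40 to 0.41 for Nkg7, −0.72 to 0.79 for Gzma, −0.93 to 0.60 for Ighm, −0.77 to 0.29 for Ccl5, −0.06 to 0.04 for Csk, −0.34 to 0.93 for Il2rb and −0.28 to 2.42 for Prf1. Those between WT and GSK219 ran from −0.41 to 1.09 for Cd3g, −0.22 to 1.77 for Cd8a, −0.45 to 0.63 for Nkg7, −2.81 to 0.45 for Ms4a1, −2.08 to 0.15 for Cd79a and −0.95 to 0.38 for Igha. Those between TRPV4-KO and GSK219 ran from −1.81 to 0.15 for Cd3g, −0.10 to 0.55 for Cd4, −0.28 to 0.99 for Cd8a and −0.41 to 0.77 for Nkg7.

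Between WT and TRPV4-KO, DESeq2 also passed Ighg1 (adjusted p = 0.034), Igkc (adjusted p = 0.047) and Prdm1 (adjusted p = 0.027), and without TRPV4-KO 3 edgeR passed Btk (adjusted p = 0.044) and Vav1 (adjusted p = 0.035). Of the 9 genes, 8 had 61 counts or fewer in every liver, and there were 2 WT livers. How far depth set the number of calls was not tested.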
